A study of Mus musculus with 7 samples.

Results

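The microRNA (miRNA) repertoire of CD4+ T cells was described on 4 arrays from EAM mice, a mouse model of autoimmune myocarditis. These are the 4 of 7 arrays in the series whose titles name EAM, and the other 3, from LAD mice, a model of myocardial infarction, enter only counts that name them. Per the labels, the CD4+ cells came from draining lymph nodes, at day 6 in EAM and day 3 in LAD, although the design text of the series names those days in reverse. They were purified by positive selection with a biotinylated antibody to CD4 and streptavidin beads, and Cy3 was attached to the 3′ ends of 100 ng of RNA for each array. The strain, age and sex of the mice and the agent that induced the disease are not given in the sources used here, and no healthy mice were measured. Nothing says whether the 4 EAM samples came from separate mice, so the spread between them may be technical. All arrays lay on 1 slide, where the row and the EAM replicate number cannot be told apart.

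A miRNA is a short RNA cut from a hairpin precursor, whose arms give a 5p and a 3p product. The product that stays bound to an Argonaute protein finds its target messages mainly through its seed, the bases from 2 to 8, so miRNAs that share a seed form a family with overlapping targets. In T cells miRNAs set how strongly the cell responds to its antigen receptor, how it divides, and which cytokines it makes.

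Of 1881 miRNA names on the array, 410 (21.8%) were detected by the scanner software on all 4 EAM arrays, 96 on some of them and 1375 on none. These 410 carried 99.7% ± 0.221 (SD, n = 4) of the signal of all detected miRNAs. Values are the total gene signal of a miRNA, background-subtracted and unscaled, as a percent of the signal of the miRNAs detected on that array. Single arrays had 445 to 471 detected names and total signals of 206275 to 256403 intensity units. The scanner software marked 4.90% of spots as outliers on array 1 and 2.74% to 2.93% on the others. Every miRNA had 30 spots, but a rank or ratio between miRNAs still compares the signals of different probes and is not a ratio of molecules.

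The signal was concentrated in few sequences. The miRNAs that carried most of it are shown here with the seed in capitals, to let their seeds be read side by side (mature sequences from RefSeq, GRCm38.p6).
miR-6366: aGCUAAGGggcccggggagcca
miR-142a-3p: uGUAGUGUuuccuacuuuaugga
miR-142a-5p: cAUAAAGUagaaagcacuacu
miR-29a-3p: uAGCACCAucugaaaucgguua
miR-29b-3p: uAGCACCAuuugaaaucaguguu
miR-21a-5p: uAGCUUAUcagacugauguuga
let-7g-5p: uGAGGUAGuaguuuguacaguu
let-7f-5p: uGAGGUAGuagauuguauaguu
let-7a-5p: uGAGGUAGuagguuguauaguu
let-7i-5p: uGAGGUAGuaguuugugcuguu
miR-15b-5p: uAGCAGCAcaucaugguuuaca
miR-16-5p: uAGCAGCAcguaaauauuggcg
The 4 let-7 sequences had 1 seed, as did the 2 of miR-29 and the pair miR-15b-5p and miR-16-5p, while the seeds of both miR-142a arms were shared with no other miRNA shown. Another 3 of the 16 highest names shared the 6 bases AUCCCA near the 5′ end, at bases 4 to 9 or 5 to 10, which are in capitals below to show this shared stretch.
miR-3963: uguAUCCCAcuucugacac
miR-5100: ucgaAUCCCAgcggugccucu
miR-3968: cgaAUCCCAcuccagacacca
The letters AUCCCA, searched on the RNA strand only, occurred in 7 of 1679 mature mouse sequences (0.417%) and in 3 of the 327 detected ones with a sequence in the table (0.917%), which are these 3. The stretch was read off these 3 names after their values were seen. Their count among the detected names was thus fixed in advance, and the 2 shares are only a description.

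The highest 3 names together held 44.9% ± 3.03 (SD, n = 4) of the signal. miR-3963 held 16.4%, 14.1%, 16.5% and 15.2% on arrays 1 to 4, a mean of 15.6% ± 1.12. miR-6366 held 14.8%, 11.5%, 18.2% and 14.4%, a mean of 14.7% ± 2.73. Arrays 2 and 3 were its lowest and highest, and it had the widest spread of the 15 highest miRNAs (SD of log2 percent 0.27, against a median of 0.12). miR-142a-3p, from a hairpin known as specific to blood cells, held 14.5%, 15.4%, 13.6% and 14.98%, a mean of 14.6% ± 0.765. The means of these 3 differed by less than the SD of the first, and each of the 3 ranked between 1 and 3 on every array. With normexp, quantile normalization and median polish together, and in the authors' value table, miR-142a-3p had the highest mean. Without background correction miR-3963 kept it.

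The next names were much lower. miR-29a-3p, whose family restrains interferon-γ production in T cells, ranked 4 on each array with 4.15%, 4.43%, 4.15% and 4.65%. miR-142a-5p, from the other arm of the miR-142a hairpin, held 2.91%, 3.46%, 3.12% and 3.55%. miR-150-5p, high in mature resting lymphocytes, held 2.36%, 2.62%, 2.34% and 2.70%. The order of these names was not the same on every array: miR-5100 (3.63% ± 0.282) was above miR-142a-5p (3.26% ± 0.298) on arrays 1 and 3 and below it on arrays 2 and 4. miR-21a-5p, a miRNA induced in activated lymphocytes, held 2.36% ± 0.106, the smallest spread of the 15 highest (SD of log2 percent 0.06). let-7g-5p (3.11% ± 0.262), let-7f-5p (2.97% ± 0.258), miR-15b-5p (2.43% ± 0.241), let-7a-5p (2.07% ± 0.183), miR-16-5p (1.75% ± 0.225), miR-29b-3p (1.65% ± 0.117) and let-7i-5p (1.18% ± 0.110) completed the 15 highest.

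**Figure D1:**
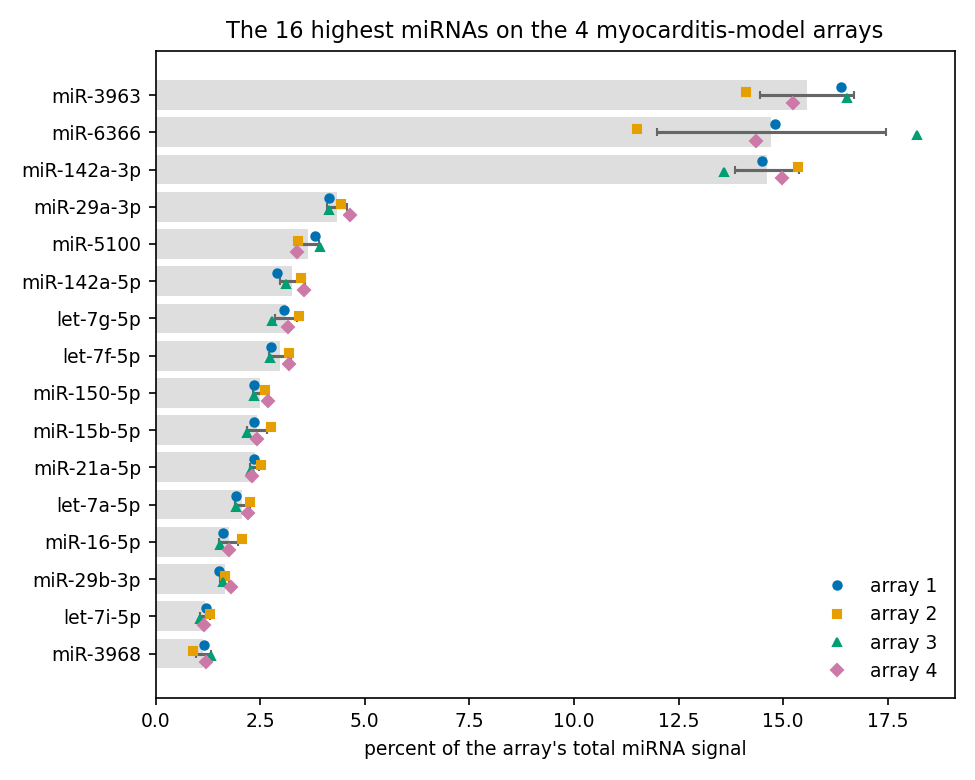
Percent of the total miRNA signal of each array for the 16 miRNAs with the highest mean, ordered from top to bottom. Grey bars are means and whiskers 1 SD over 4 arrays, and each marker is 1 array. miR-3963, miR-6366 and miR-142a-3p stand at 14.6% to 15.6% on average, and miR-29a-3p follows at 4.35%.

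The 10 highest miRNAs summed to 67.1%, 64.3%, 69.6% and 67.6% on arrays 1 to 4 (mean 67.1% ± 2.18), the 50 highest to 93.1% ± 0.763 and the 100 highest to 96.5% ± 0.536. Between 4 and 6 names reached 50% of an array's signal, 33 to 39 reached 90% and 208 to 237 reached 99%. The 205 lower names of the ranking carried 1.04% ± 0.0967 in all. The signal of the highest name was 18710 to 26946 times that of the lowest detected name on the same array, and 0 spots were saturated. Pairs of arrays correlated at 0.985 to 0.994 (Pearson's r of log2 percent across the 410 miRNAs, which are not independent replicates).

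The probes limit what the highest names show. The 2 probes of miR-6366 are 11 and 12 bases long, tggctccccgg and tggctccccggg, and those of miR-5100 are 13 and 14 bases long. The 2 probes of miR-142a-3p are 22 and 23 bases long. The array design gives no genome position for the probes of miR-3963, miR-6366, miR-5100 and miR-3968, which were chosen for this remark after their values were seen. Whether other RNAs bind these probes was not tested. Without these 4 names in the total, the 10 highest of the remaining miRNAs held 60.7% and the let-7 family 17.9%. By RefSeq, miR-5100 lies within the gene Mief2 and miR-3968 within Trim80.

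The other high names have known positions. By the array design (mm9), the probed bases of miR-142a-3p lie at chr11:87756904-87756925 on the plus strand, those of miR-142a-5p at chr11:87756870-87756887, those of miR-29a-3p at chr6:31012716-31012734 on the minus strand and those of miR-150-5p at chr7:52377139-52377153 on the plus strand. By RefSeq, the miR-142 and miR-29a hairpins do not lie wholly within another gene. Genes with symbols that start with Mir, and genes that overlap only part of a hairpin, were not counted. miR-21a lies within Vmp1, let-7g within Wdr82, and miR-15b and 1 of the 2 copies of miR-16 within Smc4, a condensin subunit gene, while the other copy of miR-16 lies within the long noncoding RNA gene Dleu2. Hairpins within 10 kb of each other on 1 strand gave clusters whose detected products summed to 6.00% ± 0.351 for miR-29a and miR-29b-1, 5.75% ± 0.489 for let-7a-1, let-7f-1 and let-7d, and 4.19% ± 0.466 for miR-15b and miR-16-2. Some of this signal may come from second copies elsewhere, since let-7a-5p, let-7f-5p, miR-29b-3p and miR-16-5p are each placed at 2 positions and the array cannot tell copies apart.

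Of the 410 miRNAs, 327 had a sequence in the table and could be placed by seed. Of these, 69 fell into 24 families of 2 or more detected names and held 32.1% ± 2.35 (SD, n = 4) of the signal, 258 were alone in their seed and held 61.7% ± 2.86, and the 83 without a sequence there held 5.88% on average. The let-7 family, whose members hold back growth and cell-cycle genes, was the highest. Its sequences beyond those shown above differ from let-7a-5p outside the seed.
let-7c-5p: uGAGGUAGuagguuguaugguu
let-7b-5p: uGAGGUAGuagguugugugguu
let-7d-5p: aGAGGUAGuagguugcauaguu
miR-98-5p: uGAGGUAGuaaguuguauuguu
let-7e-5p: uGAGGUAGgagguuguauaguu
The let-7 family summed to 11.2%, 12.7%, 10.6% and 12.03% on arrays 1 to 4 (mean 11.6% ± 0.924) from 9 detected members of 11 names with this seed. By percent, array 2 was the highest for 8 of the 9 members, but with each array centred on its median array 4 was the highest for all 9, so the order of the arrays depends on the scaling. Within the family the levels spanned from 3.11% (let-7g-5p) to 0.00718% (let-7e-5p), and let-7g-5p made up 26.7% of the family's signal.

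The 3 detected members of the miR-29 family summed to 6.20%, 6.66%, 6.30% and 7.07% (mean 6.56% ± 0.395), of which miR-29a-3p made up 66.3% and miR-29c-3p was the lowest member (0.561%). The miR-15/16 family, which restrains cyclins and the survival factor Bcl2, summed to 4.62%, 5.68%, 4.30% and 4.78% (mean 4.84% ± 0.590). It had 5 detected members of 10 names, from miR-15b-5p down to miR-195a-5p (0.0266%) and miR-322-5p (0.02002%). These 3 families did not overlap in percent on any array.

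The next families were lower. miR-26a-5p and miR-26b-5p, whose 3 hairpins lie within the phosphatase genes Ctdspl, Ctdsp2 and Ctdsp1 by RefSeq, summed to 2.15% ± 0.183. The family of miR-17-5p and miR-20, which promotes division of lymphocytes, summed to 1.59% ± 0.131, of which miR-20b-5p (0.557%) and miR-20a-5p (0.541%) were the highest and miR-17-5p (0.0139%) the lowest. miR-106b-5p (0.361%) and miR-93-5p (0.114%) lay between them. The miR-25/92 family summed to 1.43% ± 0.137, mostly miR-92a-3p (1.08%), and miR-19a-3p with miR-19b-3p summed to 1.07% ± 0.0913. Below 1% were miR-3473b with miR-3473e (0.781% ± 0.159), miR-30a-5p, miR-30c-5p and miR-30e-5p (0.735% ± 0.0490, a sum that leaves out miR-30b-5p at 0.505% and miR-30d-5p at 0.113%, which were not placed by seed), and miR-103-3p with miR-107-3p, which lie within the pantothenate kinase genes Pank1, Pank2 and Pank3 (0.263% ± 0.0231). Every probe of miR-3473b would also pair with miR-3473a, and every probe of miR-17-5p with miR-106a-5p, so these values may hold the signal of both names.

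**Figure D2:**
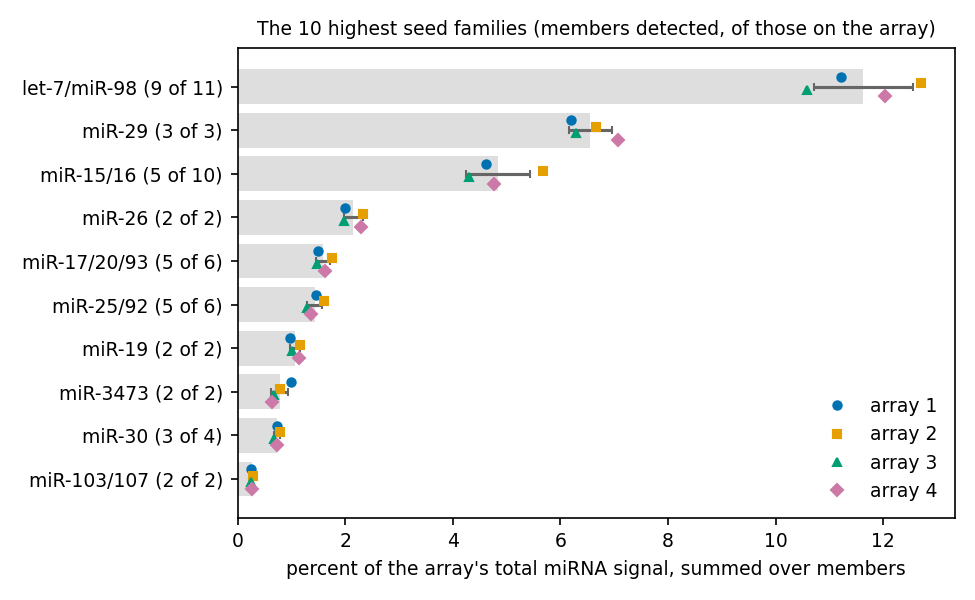
Percent of the total miRNA signal summed over the detected members of the 10 highest seed families. Grey bars are means and whiskers 1 SD over 4 arrays, markers are arrays, and the counts beside each name give detected members of all names with that seed. The let-7 family lies above 10% on each array, and the miR-29 and miR-15/16 families follow.

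Lists of miRNAs known from T cells and from other cell types were chosen with earlier results of these data known. They are described here and are no independent check of the labelled cell type. All 9 names of the lymphocyte list were detected on all 4 arrays, as were 410 of all 1881 names. The 9 summed to 21.8% ± 1.27, led by both arms of miR-142a and miR-150-5p, with miR-342-3p at 0.727%, miR-155-5p at 0.309%, miR-146a-5p at 0.254% and miR-181a-5p at 0.0777%. The miR-142a arms, at 14.6% and 3.26%, come from a hairpin specific to blood cells, so their part of the sum does not set T cells apart from other blood cells. All 14 names of a list high in resting T cells were detected and summed to 12.9% ± 0.820. Of 13 names known to rise on activation, 9 were detected on all 4 arrays and summed to 3.08% ± 0.152, of which miR-21a-5p was 2.36%, and miR-182-5p, miR-183-5p, miR-214-3p and miR-222-3p were detected on none. miR-155-5p, made from the Bic transcript in activated lymphocytes, held 0.294%, 0.350%, 0.288% and 0.303%. miR-146a-5p, which dampens inflammatory signalling through NF-κB, held 0.241%, 0.278%, 0.243% and 0.252%. Both were lower than miR-21a-5p on every array. Both also stand in the lymphocyte list, as miR-150-5p of the resting list does. All 6 guides of the miR-17-92 cluster, which drives expansion of lymphocytes, were detected and summed to 2.73% ± 0.205. Its 2 highest, miR-92a-3p (1.08%) and miR-19b-3p (0.889%), are also placed in a second cluster on chromosome X. Part of this sum may therefore come from there. Of 8 names tied to helper subsets, 6 were detected on all arrays, led by miR-23a-3p (0.347%) and miR-24-3p (0.201%), and miR-326-3p and miR-31-5p on some. Of 7 names tied to regulatory T cells, miR-125a-5p and miR-125b-5p were detected on all arrays, miR-99a-5p on 3 and miR-10a-5p on 1, and the list summed to 0.00670% ± 0.00182.

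Of the names listed for other cell types, miR-128-3p, miR-451a and miR-223-3p ranked 85, 115 and 122 of the 410, above the median share of 0.0105%. The 5 epithelial names detected on all 4 arrays lay below that median, and the other names were detected on fewer arrays or on none. Of all 1881 names on the array, however, 1375 were detected on no EAM array and 410 (21.8%) on all 4. A listed name without detection thus shared the state of most names. miR-223-3p, the defining miRNA of myeloid cells, held 0.0277%, 0.0280%, 0.0283% and 0.0262%, while miR-223-5p was detected on none. miR-451a, which red cells make in great amount, held 0.0285%, 0.0452%, 0.0242% and 0.0235%, with array 2 the highest, and miR-144-3p, miR-144-5p and miR-486a-5p were detected on none. Of 7 names of endothelium and stroma, miR-126a-3p was detected on 3 arrays and the other 6 on none. Of 8 epithelial names, 5 were detected on all arrays and summed to 0.0314% ± 0.00300, led by miR-203-3p (0.00895%) and miR-200a-3p (0.00884%), and miR-429-3p, miR-205-5p and miR-375-3p on none. None of 7 heart and skeletal muscle names (miR-1a-3p, miR-133a-3p, miR-133b-3p, miR-208a-3p, miR-208b-3p, miR-499-5p and miR-206-3p) was detected on any EAM array, nor was miR-122-5p of liver or miR-124-3p and miR-9-5p of nerve cells. The remaining nerve cell name, miR-128-3p, held 0.0410%. In these bulk samples fewer cells of a type and less RNA per cell cannot be told apart, and the part of such cells in the other values was not tested.

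Both arms of a hairpin can be compared where both were detected on all 4 arrays, which held for 51 of 775 hairpins with both arms on the array. The 5p arm had the higher signal on all 4 arrays in 33 of them, the 3p arm in 16, and 2 were mixed. The arms differed over 16-fold in 19 hairpins, 13 toward 5p and 6 toward 3p, and under 2-fold in 7. The median size of the log2 ratio was 2.86, a 7.25-fold difference, while the median SD of a ratio over the 4 arrays was 0.21. The typical difference between arms was thus larger than the typical spread between arrays.

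The order given here covers only hairpins with both arms detected on every array. Among them the strongest asymmetry toward 5p was in let-7a. Its log2 ratios of let-7a-5p over let-7a-1-3p were 10.80, 11.15, 11.16 and 11.49 (mean 11.15 ± 0.28). It was followed by let-7f-5p over let-7f-1-3p (9.19 ± 0.37), miR-16-5p over miR-16-2-3p (8.89 ± 0.33), miR-15b (8.88 ± 0.05), miR-20b (8.67 ± 0.07) and let-7d (8.12 ± 0.52). For let-7a, let-7f and miR-16 the 5p product is placed at 2 positions and the 3p product named here at 1. Every probe of let-7a-1-3p would also pair with let-7c-2-3p. let-7a-1-3p held 0.000916%, close to the lowest detected signal, which limits the size of the let-7a ratio. Hairpins with 1 arm detected on no array are left out of this order and may be more asymmetric. let-7g-5p was at least 3513-fold above the lowest signal detected on the same array. By the same measure miR-29b-3p, with miR-29b-2-5p detected on none, was at least 1743-fold above. miR-29b-3p is placed at 2 positions, and its whole signal enters both this value and the miR-29b-1 ratio. These 2 values are not arm ratios and set no bound on them, whereas let-7a (mean 2273-fold) and miR-29a (1434-fold) compare 2 detected arms. Among hairpins with both arms detected, the strongest asymmetry toward 3p was in miR-29a and in miR-29b-1 (-8.82 ± 0.16). The log2 ratios of miR-29a were -10.59, -10.24, -10.65 and -10.45 (mean -10.49 ± 0.18). The sequences of both arms show which product held the signal, with the seed in capitals.
miR-29a-5p: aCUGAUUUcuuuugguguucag
miR-29a-3p: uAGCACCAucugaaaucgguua
miR-29a-5p stood at 0.00306% and miR-29a-3p at 4.35%. miR-342 (-6.04 ± 0.05), miR-130b (-6.01 ± 0.18), miR-669f (-4.60 ± 0.22) and miR-362 (-4.58 ± 0.38) followed. miR-130b-5p held 0.000826%, less than let-7a-1-3p, miR-362-5p 0.00145% and miR-20b-3p 0.00137%. Low signal thus also limits the size of the miR-130b, miR-362 and miR-20b ratios. The size of the largest ratios depended on the processing: without background correction let-7a stood at 6.00 and miR-29a at -7.15, and in the authors' value table at 6.76 and -7.83.

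Other hairpins had smaller differences between their arms. miR-142a gave high signal from both arms, which ranked among the 6 highest miRNAs. Its 3p arm was still 4.49-fold above its 5p arm, with log2 ratios of -2.32, -2.15, -2.12 and -2.08 (mean -2.17 ± 0.10). In miR-140 the 3p arm was 1.58-fold higher (-0.66 ± 0.09), with 0.183% against 0.116%. miR-17 had more signal in its 3p than its 5p arm (-1.05 ± 0.16), in contrast with miR-20a of the same cluster (7.62 ± 0.09). Different probes read the 5p products, miR-17-5p at 0.0139% and miR-20a-5p at 0.541%, and the part of the probes in this contrast was not tested. The other ratios nearest 0 were those of miR-7219 (0.68 ± 0.06), miR-324 (0.78 ± 0.08), miR-3102-5p.2 with its 3p partner (0.42 ± 0.15), miR-32 and miR-211. In miR-211 the ratios were -0.35, 0.64, -0.61 and 0.05, and in miR-32 they were 0.06, -0.04, 0.57 and 0.71, so no arm was higher on every array. Both arms of miR-211 and miR-32 had means below 0.01%.

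In 241 further hairpins only 1 arm was detected on all 4 arrays, the 5p arm in 135 and the 3p arm in 106, and in 210 of these the other arm was detected on none. Among them were let-7g, let-7i, miR-155, miR-146a and miR-106b, whose 3p arms were detected on none. let-7g-5p was at least 3513-fold above the lowest signal detected on the same array. miR-150-3p was detected on 2 arrays and miR-21a-3p on 3, and on those arrays their 5p arms were at least 1889-fold and 928-fold higher.

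**Figure D3:**
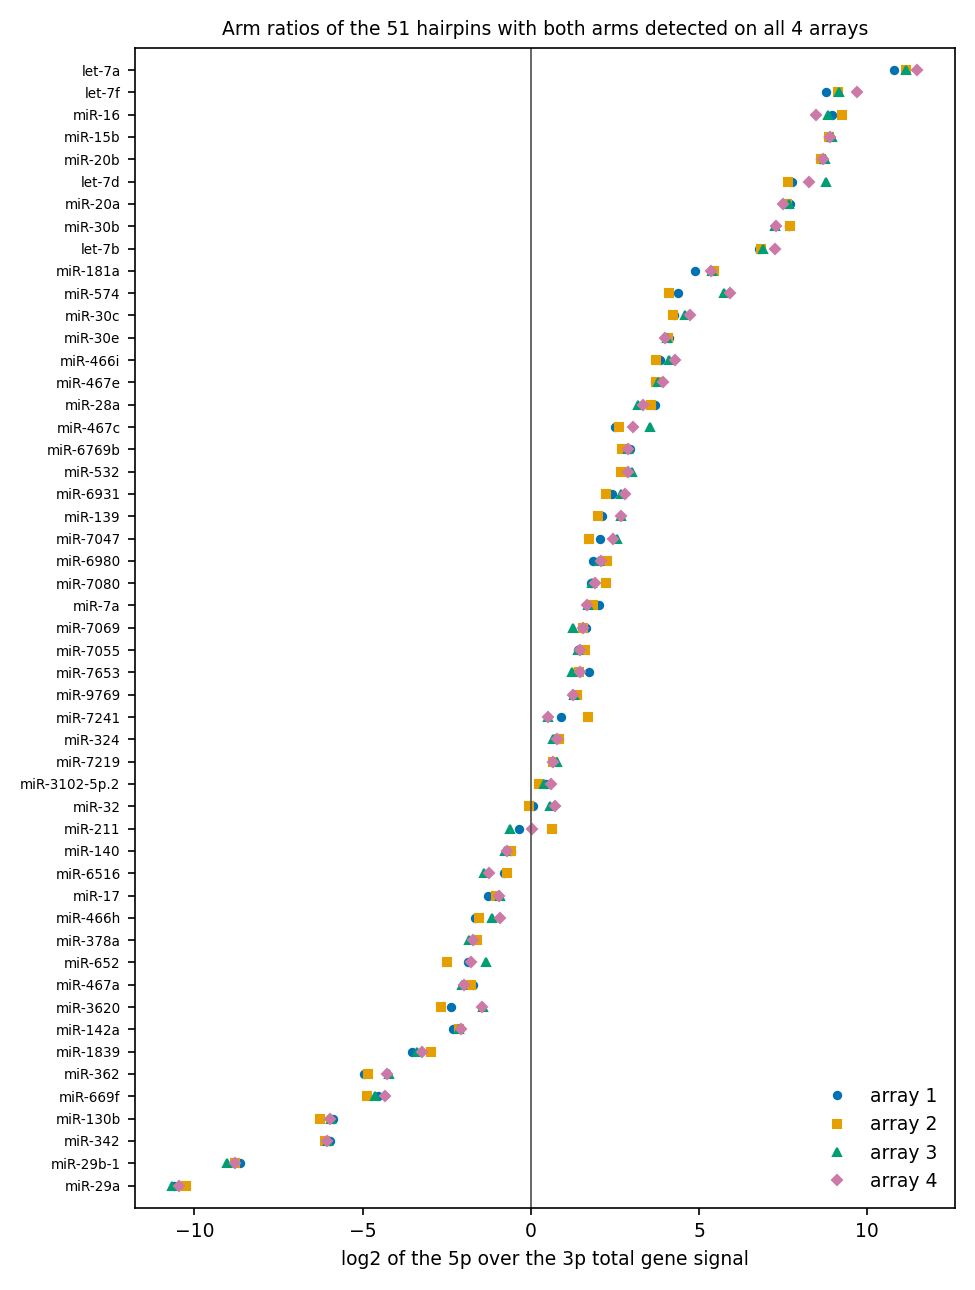
log2 of the 5p over the 3p total gene signal for the 51 hairpins with both arms detected on all 4 arrays, ordered by their mean. Each marker is 1 array, and the line at 0 marks equal signal. let-7a lies at the top with a mean of 11.15 and miR-29a at the bottom with -10.49, and the markers of miR-211 and miR-32 fall on both sides of 0.

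The values of the 410 miRNAs differed little between the arrays. The median SD of log2 percent was 0.23 (0.18 for the 205 higher names and 0.26 for the lower ones), 26 miRNAs exceeded 0.5 and 2 exceeded 1. The SD exceeded the error that the scanner software gives for the same miRNA in 306 of 410 (74.6%), and in 278 (67.8%) with each array centred on its median. By percent, array 2 was the highest for 186 miRNAs (45.4%) and array 4 the lowest for 160 (39.0%). With each array centred on its median, array 4 was the highest for 156 (38.0%), array 2 for 88, and the median SD was 0.18. These counts of the highest array thus depend on the scaling.

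The 2 miRNAs with an SD above 1 were miR-466g and miR-574-3p. miR-466g, one of the repeat-derived miRNAs named miR-297, miR-466, miR-467 or miR-669, had a total gene signal of 52.6, 45.4, 10.9 and 8.69 on arrays 1 to 4, a 7.21-fold range in percent. miR-574-3p had 16.4, 17.2, 4.10 and 4.70, a 4.51-fold range. Both were high on arrays 1 and 2 and low on arrays 3 and 4, while miR-574-5p of the same hairpin had 338, 294, 222 and 283, and the log2 arm ratio of miR-574 had the largest SD of the 51 (4.37, 4.10, 5.76 and 5.91). miR-132-3p, a miRNA induced on activation, followed with 5.16, 14.1, 3.96 and 5.91, high on array 2 alone, with an SD of 0.82, or 0.17 without array 2. The next 7 were miR-878-3p, miR-592-5p, miR-294-3p, miR-207, miR-344i, miR-467c-3p and miR-7005-5p, with means of at most 0.00523% and SDs of 0.64 to 0.79. Among the higher 205 names, the largest SDs after miR-466g were those of miR-466f-3p (0.58), miR-466i-3p (0.50), miR-181c-5p (0.45), miR-466h-3p (0.44), miR-451a (0.44), miR-322-5p (0.43), miR-669c-3p (0.42), miR-466q (0.42) and miR-3095-3p (0.42). Every probe of miR-466f-3p would also pair with miR-466i-3p. Which 10 miRNAs varied most depended on the processing: 2 of these first 10 remained so without background correction, 2 with normexp, quantile normalization and median polish together, and 0 in the authors' value table. The SD of miR-466g was 0.69, 0.51 and 0.21 under these, and that of miR-574-3p 0.35, 0.41 and 0.19.

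The miR-297, miR-466, miR-467 and miR-669 names had 36 detected members with 1.39%, 1.54%, 1.09% and 1.16% of the signal on arrays 1 to 4. By percent, array 2 was the highest for 25 of the 36 and array 3 the lowest for 24. With median centring array 4 was the highest for 15, array 2 for 13 and array 3 the lowest for 19. Probes that hold the 6 bases TGTGTG, searched on the probe strand, belonged to 34 of the 1881 names on the array. Among the 410 detected miRNAs these were 17 of the 36 names and miR-574-3p. The 18 had a median SD of 0.41 and the 19 names of the same group without it 0.20. This motif was chosen after the values were seen, and its part in the spread was not tested.

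**Figure D4:**
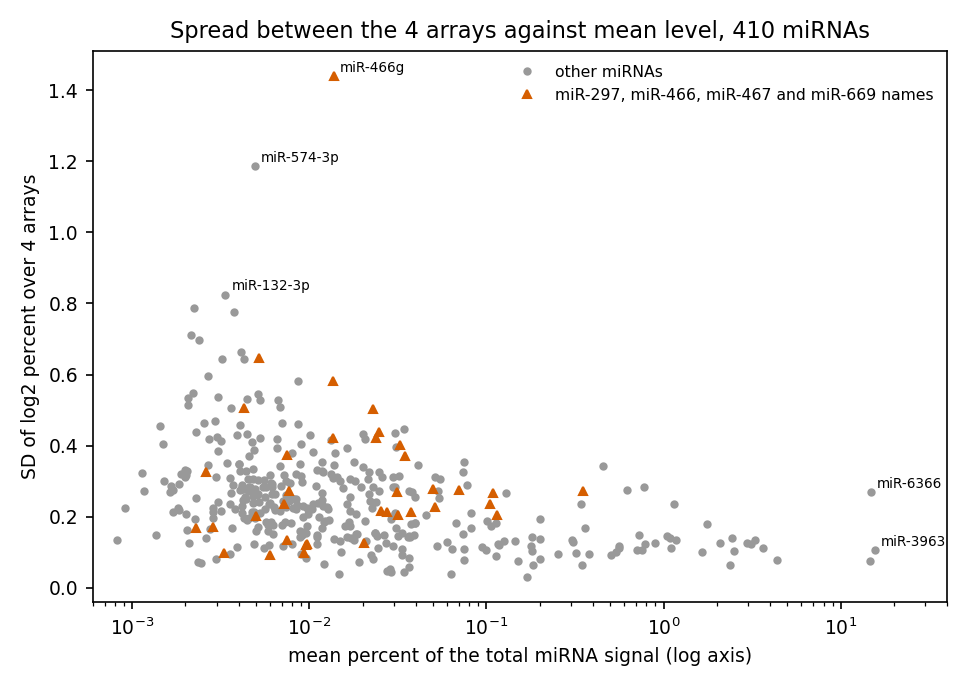
SD of log2 percent over the 4 arrays against mean percent (log axis) for the 410 miRNAs, with names of the miR-297, miR-466, miR-467 and miR-669 groups as orange triangles. miR-466g (1.44) and miR-574-3p (1.19) lie above all others, and the 15 highest miRNAs lie between 0.06 and 0.27.

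The widest differences between the arrays lay in names that were not detected on all of them, and that the ranking therefore left out. With a name not detected on an array set to the lowest signal detected there, 16 of the 506 names detected on at least 1 array varied over 8-fold, 0 of them detected on all 4, and 17 ranges exceeded that of miR-466g. With normexp, quantile normalization and median polish 6 names varied over 8-fold, and 0 did so in the authors' value table. Of these 16, 14 were detected on arrays 1 and 2, 5 of them also on array 3, and none on array 4. The other 2, miR-6399 and miR-7061-5p, were detected on array 3 alone. These names were singled out after their values were seen. Of the 14, 11 had a sequence in the table, and the 6 of these with the widest ranges are shown, with the seed in capitals, because no seed among them is shared.
miR-376b-3p: aUCAUAGAggaacauccacuu
miR-6393: cUGCCCACgaagcacacugagu
miR-497b: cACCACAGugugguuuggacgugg
miR-873b: aCAAGUUCcugcaaaugcacac
miR-452-5p: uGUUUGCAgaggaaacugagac
miR-6481: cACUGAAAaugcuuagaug

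miR-376b-3p, of a large imprinted miRNA cluster, had a total gene signal of 154 and 168 on arrays 1 and 2 and 12.1 on array 3, and was not detected on array 4, which puts its highest percent 143.3-fold above that of the lowest signal detected on array 4. miR-7680-3p had 127 and 106 and was detected on neither array 3 nor array 4 (104-fold by the same measure). miR-6393 had 112, 105 and 4.30 (91.98-fold) and miR-497b 101 and 95.7 (83.2-fold). On arrays 1 and 2 these names stood above the median signal of 24.6 and 23.9 over the 410 miRNAs there. These folds rest on background-subtracted signal and on the value set for arrays without detection: over the 14 names the ranges were 1.59- to 33.7-fold with normexp, quantile normalization and median polish, and 1.15- to 5.26-fold in the authors' value table. miR-873b had 98.6, 77.2 and 3.32, miR-452-5p 78.2, 62.8 and 10.1, and miR-6481 67.6, 53.0 and 9.44. miR-466o-3p, miR-669h-3p, miR-3098-3p, miR-5709-5p, miR-376a-3p, miR-664-5p and miR-691 had between 9.87 and 49.1 on array 1 and between 4.31 and 38.5 on array 2, and were not detected on arrays 3 and 4.

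The mean spot signal of miR-376b-3p without background correction was 329, 353, 67.9 and 44.5, where the median over all names was 52.0, 48.8, 46.2 and 45.2. Since the 14 names were chosen for this order of the arrays, their own values are a description and no support for it. All 32 of their probes, and all 14 names in the authors' value table, read higher on arrays 1 and 2 than on arrays 3 and 4. Array 1 was above array 2 in 13 of the 14. Together they held 0.428% of the signal on array 1, 0.381% on array 2, 0.0191% on array 3 and 0% on array 4. Of the 14, 13 were not detected on any LAD array. The share of all names without a LAD detection is not given here, while 1375 of the 1881 names were detected on no EAM array. Slide row, and whatever else changed from one EAM sample to the next, cannot be told apart here.

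**Figure D5:**
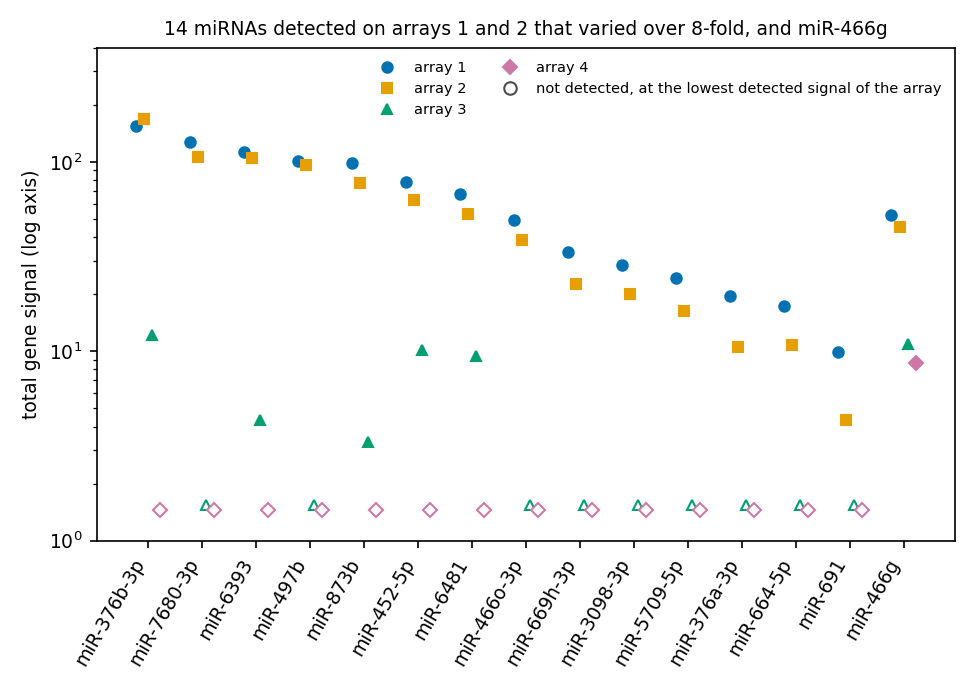
Total gene signal (log axis) of the 14 miRNAs that were detected on arrays 1 and 2 and varied over 8-fold, with miR-466g for comparison. Filled markers are detected values and open markers, at the lowest signal detected on that array, are arrays without detection. All 14 are open on array 4, and 5 have a filled marker on array 3.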

How the data were processed

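Scanner files of the 4 EAM arrays were read as deposited. Per the file headers, spots were read with Agilent Feature Extraction 10.7.3.1, and the deposited intensity values per miRNA are total gene signal, background-subtracted and not scaled between arrays. Other deposited columns hold marks of 0 or 1, for detection and for spots that were saturated or outliers. A table of log2 values was also deposited by the authors, and the submitters' processing notes name RMA with no role.

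Each signal was divided by the array's sum over detected miRNAs. Arm ratios are log2 of 5p over 3p signal. Spread is the SD of log2 percent. No group test was run. Alternatives were no background correction, normexp with quantile normalization and median polish (limma 3.58.1, R 4.3.3), the authors' table, other scalings and denominators, and leaving out each array. The functions, in Python 3.11.15 with pandas 2.3.3, were tested on simulated data. Named miRNAs are the 15 highest, members of the 10 highest families, hairpins with extreme or near-equal arm ratios, the 10 largest SDs overall and among the 205 higher names, and all list members. Members and lists were chosen with earlier results of these data known. Signal over background and the number of arrays limit the precision: the detection mark of the scanner software sets the lower limit.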

Additional observations from a re-analysis of the deposited data

Results flagged for a closer look

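Among 123 values tested over the 4 EAM arrays with Dixon's criterion, 3 had 1 array whose gap to the nearest other, divided by the range, was above the 95% critical value for 4 samples. Chance gives such a gap in about 1 of 20 groups, and the 3 were 2.44% of the values, a smaller share. The values also overlap, since families and arm ratios are built from single miRNAs. miR-181a-5p, which sets antigen receptor sensitivity in T cells, was high on array 2 (0.0715%, 0.103%, 0.0672% and 0.0691%), with a gap of 0.856 of the range on the log2 scale. miR-344i was low on array 2 (0.00481%, 0.00196%, 0.00530% and 0.00449%), with a gap of 0.833. The log2 ratio of miR-7219-5p over miR-7219-3p was high on array 3 (0.64, 0.66, 0.77 and 0.65), with a gap of 0.850, although its SD was 0.06.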

How the results depend on the processing

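No paired analysis was possible because no groups were compared: the replicate numbers that EAM and LAD share in the labels enter no test. The 410 miRNAs detected on all 4 EAM arrays became 439 with detection on at least 3 arrays and 251 with detection on all 7, and 413 to 425 without 1 EAM array. The percent of signal in the 10 highest miRNAs, 67.1%, became 71.2% over names with a RefSeq sequence only, 62.8% without background correction, 63.1% in the authors' table and 60.7% without miR-3963, miR-6366, miR-5100 and miR-3968 (an alternative added after seeing the data), and 66.3% to 68.1% without 1 array. The percent of signal in the highest seed family (let-7), 11.6%, became 17.9% without those 4 names, and 11.3% to 11.98% without 1 array. The hairpins with more 5p than 3p signal on all 4 arrays numbered 33, 32 to 34 under the other signals, 33 to 37 without 1 array, and 166 where 1 detected arm was enough. The median SD of log2 percent over miRNAs, 0.23, became 0.18 without background correction, 0.15 with normexp, 0.067 in the authors' table, 0.18 with median centring, 0.19 with scaling to the 75th percentile, 0.18 in the 205 higher names, and 0.19 to 0.25 without 1 array. The mean log2 arm ratio of miR-211, -0.07, turned to 0.98 without background correction, 0.20 with normexp, 0.049 in the authors' table, and 0.02 and 0.11 without array 1 or 3, in a range of -0.31 to 0.11 without 1 array. Of the 18 arm ratios named, 16 moved beyond their SD without background correction, with normexp or in the authors' table, and of 92 percents 46, 45 and 66 did. The 16 names with a range over 8-fold (added after seeing the data) numbered 6 with normexp, 0 in the authors' table and 11 to 16 without 1 array. Division by the number of spots changed no value, since all miRNAs had 30. Of the 15 highest miRNAs all 15 remained so under each signal. Signal near background limits the lower names: their ratios and SDs differ between these signals, and the alternatives with normexp and the authors' table change normalization and summary as well as background.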

Other observations

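GC content moved with the small differences between arrays. Across the 327 miRNAs with a sequence, the deviation of the median-centred log2 signal from its mean over the arrays correlated with GC content at 0.35 on array 1, -0.19 on array 2, 0.24 on array 3 and -0.35 on array 4 (Pearson's r, a description across miRNAs of the same arrays, which share probes and depth). The median GC content was 38.6% among the 15 highest miRNAs, of which 14 had a sequence, and 52.4% among all detected ones.

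The miR-106b, miR-93 and miR-25 hairpins, which lie within Mcm7, a DNA replication gene, summed to 0.779% ± 0.0743 (SD, n = 4), and the miR-23a, miR-27a and miR-24-2 cluster to 0.717% ± 0.0330. miR-24-3p also has the hairpin miR-24-1 elsewhere, which may give part of the latter sum. Of the miR-212 and miR-132 pair, which share a seed, miR-212-3p held 0.0394% ± 0.00662 and miR-132-3p 0.00335% ± 0.00230, or 0.00221% without array 2.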
